A study of Mus musculus with 6 samples.

Results

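The skeletal myosin heavy chain genes Myh1, Myh2, Myh3, Myh4, Myh7, Myh7b and Myh8 were followed in mouse C2C12 myotubes, with knockdown of perilipin 2 (Plin2), a lipid droplet coat protein, and with fatty acids. These 7 sarcomeric genes were taken by name out of 19938 genes with a probe set tied to 1 gene symbol, and each had 1 such probe set. Myosin heavy chain is the motor of the muscle thick filament: its head binds actin and splits ATP, and its tail assembles into the filament. Muscle exchanges the isoforms as it matures, with an embryonic (Myh3) and a perinatal (Myh8) form giving way to slow (Myh7) or fast (Myh2, Myh1, Myh4) adult forms, which differ in shortening speed.

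Myotubes are multinucleated muscle cells that form when the C2C12 myoblast line is kept in low serum. All cultures were differentiated this way and transfected with 10 nM siRNA, directed against Plin2 or of scrambled sequence. Each siRNA was combined with 200 µM palmitate bound to albumin (BSA), 200 µM oleate bound to BSA, or BSA alone, for 20 h, which gave 6 conditions with 1 Affymetrix array each. The comparison asks how loss of Plin2 and a fatty acid load change gene expression in muscle cells of a single line.

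Values were log2 expression values per probe set, and having 1 array for each condition sets how precise they are. Array medians lay between 4.94 and 5.02. Plin2 was between 6.95 and 7.63 on the 3 Plin2 siRNA arrays, against 9.29 to 10.10 on the scrambled arrays. The myotube label was checked on 12 marker genes, and each of them lay at 8.58 or above on every array, among them Ckm, the muscle creatine kinase (11.44 to 11.91). The 12 myotube markers averaged 11.51 to 11.60 over the Plin2 siRNA arrays, against 11.60 to 11.79 over the scrambled arrays, and 10 undifferentiated myoblast markers averaged 8.90 to 9.00, against 8.73 to 8.85. Within each list genes went both ways with Plin2 siRNA. Of the myoblast markers Id3 rose most (log2 change 1.60), while Itga7 (-0.73) and Cdh15 (-0.62) fell. Of the myotube markers Mb (-0.70) and Myog (-0.69) fell most, while Myod1 rose (0.46). The part of both marker lists in the myosin results was not tested. The 9 cardiac markers averaged 6.04 to 6.16 over the Plin2 siRNA arrays, against 6.04 to 6.19 over the scrambled arrays. Among them Tnnt2, a troponin T that developing skeletal muscle also makes, was at 12.94 to 13.22, Nkx2-5 at 6.59 to 6.76 and Gata4 at 6.10 to 6.65, and the other 6 lay at or below 5.86 on all arrays. The 7 adipocyte markers averaged 4.52 to 4.72 over the Plin2 siRNA arrays, against 4.42 to 4.67 over the scrambled arrays. Pparg was highest (6.87 to 7.35) and Adipoq lay at or below 3.54. The 8 fibroblast markers averaged 8.14 to 8.23 over the Plin2 siRNA arrays, against 8.05 to 8.21 over the scrambled arrays. Col3a1 (11.71 to 11.92) and Postn (11.65 to 12.08) were high, and Lum was low (2.48 to 2.95). The smooth muscle markers ran from Acta2 (13.43 to 13.65) to Myocd (3.50 to 3.79).

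Promoter sequence is shown first for the 4 genes that passed the siRNA test below, as the 250 bases before the RefSeq start of each gene. Capitals mark E-boxes (CANNTG, the same on both strands), a pattern that includes the sites of MyoD-type myogenic factors. The inner letters differ between the marked boxes, and which factor could bind each of them was not tested.
Myh3 (GRCm38.p6 chr11:67078050-67078299, plus strand): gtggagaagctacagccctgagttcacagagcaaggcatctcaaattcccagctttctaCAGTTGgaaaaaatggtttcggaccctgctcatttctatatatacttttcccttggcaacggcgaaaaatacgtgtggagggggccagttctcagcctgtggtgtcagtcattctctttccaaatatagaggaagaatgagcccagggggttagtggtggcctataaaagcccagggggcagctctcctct
Myh8 (GRCm38.p6 chr11:67276874-67277123, plus strand): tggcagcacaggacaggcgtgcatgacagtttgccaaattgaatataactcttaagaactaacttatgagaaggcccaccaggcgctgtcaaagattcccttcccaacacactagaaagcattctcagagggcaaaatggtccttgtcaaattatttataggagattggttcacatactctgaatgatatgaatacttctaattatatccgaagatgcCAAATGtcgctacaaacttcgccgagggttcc
Myh4 (GRCm38.p6 chr11:67237562-67237811, plus strand): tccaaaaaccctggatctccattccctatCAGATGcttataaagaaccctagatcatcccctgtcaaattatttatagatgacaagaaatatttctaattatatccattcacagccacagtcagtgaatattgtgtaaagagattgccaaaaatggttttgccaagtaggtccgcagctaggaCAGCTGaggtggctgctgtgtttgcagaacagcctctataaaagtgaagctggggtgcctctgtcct
Myh7b (GRCm38.p6 chr2:155610993-155611242, plus strand): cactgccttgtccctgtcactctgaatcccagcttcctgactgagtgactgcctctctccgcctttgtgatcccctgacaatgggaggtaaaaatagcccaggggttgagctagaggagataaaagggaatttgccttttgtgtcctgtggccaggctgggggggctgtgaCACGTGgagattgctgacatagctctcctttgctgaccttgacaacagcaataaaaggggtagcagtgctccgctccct
An E-box was found in 5 of the 7 members (Myh3, Myh4, Myh7, Myh7b and Myh8), and in 66.2% of 32851 promoter windows of the same length. Myh7 has 2 RefSeq starts, and a match in either was counted.

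Myh3, Myh2, Myh1, Myh4 and Myh8 follow each other in this order on chromosome 11, with Myh13 as the next protein-coding gene. Of these, 4 genes shared a run of 14 letters before their starts (in capitals), the longest found in at least 4 of the members' promoters and picked by comparing them. It is shown because it joins genes that passed the siRNA test, Myh4 and Myh8, with genes that did not, Myh1 and Myh2.
Myh8 (GRCm38.p6 chr11:67277056-67277097, plus strand): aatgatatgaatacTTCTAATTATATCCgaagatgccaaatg
Myh4 (GRCm38.p6 chr11:67237640-67237681, plus strand): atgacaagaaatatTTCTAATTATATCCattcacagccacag
Myh1 (GRCm38.p6 chr11:67199928-67199969, plus strand): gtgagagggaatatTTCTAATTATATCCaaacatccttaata
Myh2 (GRCm38.p6 chr11:67170888-67170929, plus strand): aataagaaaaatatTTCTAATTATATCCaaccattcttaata
The run TTCTAATTATATCC, searched on both strands, lay in these 4 of the 7 members and in 4 of all 32851 windows (0.0122%), that is, in no other window. A MEF2 site, the target of the MEF2 muscle factors, was found in Myh1, Myh4 and Myh8, against 2.92% of windows. A CArG box, the target of serum response factor, was found in Myh4 alone among the members (1.47% of windows). The letters TATAAA were found in Myh1, Myh3, Myh4 and Myh8 (12.4% of windows), and in Myh1, Myh4 and Myh8 a match on the minus strand overlapped the MEF2 site. The letters CATTCC, the core of the MCAT element bound by Tead factors, were found in Myh1, Myh4 and Myh7 (12.6% of windows). These matches describe letters only.

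Both developmental genes and the fast gene Myh4 were lower with Plin2 siRNA, and the slow-type gene Myh7b was higher. With Plin2 siRNA, 3 of the 7 genes fell and 1 rose, Myh7b (limma, Benjamini-Hochberg adjusted p under 0.05 over 21789 probe sets). That is 57.1% of the members, where 17.1% of all probe sets passed, 8.58% lower and 8.5% higher. The share over all depends on dim probe sets. With the dimmest 33.3% of probe sets removed, 4 members still passed, and the share over all was 28.1%. Myh1, Myh2 and Myh7 did not pass. The median fitted change of the 7 genes was -0.21 on the log2 scale, against 0.01 over all probe sets. In bulk RNA, fewer cells of a type and less RNA per cell cannot be told apart. The error of an siRNA change joins its variation between 3 treatment pairs of arrays with spread borrowed from other probe sets. From the pairs alone, without moderation, the SE was 0.16 for Myh4, 0.14 for Myh8, 0.15 for Myh7b and 0.06 for Myh3. None of them passed in that fit, where 0 of all probe sets passed, so their failure there is not particular to them. Nothing in the labels says that the cultures were grown separately.

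Myh3, the embryonic form and the first made in forming muscle, was at 12.60 with palmitate, 12.56 with oleate and 12.61 with BSA in Plin2 siRNA cells, against 12.79 with palmitate, 12.80 with oleate and 13.00 with BSA in scrambled cells. All 3 Plin2 siRNA arrays were lower than the 3 scrambled arrays, and they lay within 0.05 of each other. The fitted log2 change was -0.27 (SE 0.06, n = 3 pairs, limma adjusted p = 0.0052), or 0.827 of the scrambled level.

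Myh8, the perinatal form made before and around birth, was at 9.43 with palmitate, 9.36 with oleate and 9.49 with BSA in Plin2 siRNA cells, against 9.57 with palmitate, 9.70 with oleate and 10.12 with BSA in scrambled cells. The groups did not overlap, and scrambled BSA stood highest. The log2 change was -0.37 (SE 0.09, n = 3 pairs, limma adjusted p = 0.012), or 0.775 of the scrambled level.

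Myh4 encodes the fastest adult form, type IIb. It was at 6.40 with palmitate, 7.23 with oleate and 7.11 with BSA in Plin2 siRNA cells, against 6.70 with palmitate, 7.41 with oleate and 7.83 with BSA in scrambled cells. The groups overlapped, because palmitate was low with both siRNAs, and within each treatment the Plin2 siRNA array was the lower one. The log2 change was -0.40 (SE 0.11, n = 3 pairs, limma adjusted p = 0.026), or 0.758 of the scrambled level.

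Myh1 and Myh2, the other fast adult forms (types IIx and IIa), did not pass. Myh1 was at 11.22 with palmitate, 11.26 with oleate and 11.29 with BSA in Plin2 siRNA cells, against 10.96 with palmitate, 11.28 with oleate and 11.50 with BSA in scrambled cells. The Plin2 siRNA arrays lay inside the range of the scrambled arrays. Its log2 change was 0.01 (95% interval -0.17 to 0.18, limma adjusted p = 0.98). Myh2 was at 6.11 with palmitate, 6.21 with oleate and 6.17 with BSA in Plin2 siRNA cells, against 6.31 with palmitate, 6.26 with oleate and 6.56 with BSA in scrambled cells. The groups did not overlap, and the fitted log2 change of -0.21 (95% interval -0.44 to 0.02, limma adjusted p = 0.23) missed the threshold. The fast genes of the cluster are closely related in sequence; the probe sequences were not analysed here, so signal shared between them was not tested.

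Myh7, the slow type I form, which the heart also uses, did not pass. It was at 10.35 with palmitate, 10.01 with oleate and 10.37 with BSA in Plin2 siRNA cells, against 10.16 with palmitate, 10.06 with oleate and 10.59 with BSA in scrambled cells. The groups overlapped, and oleate was the lowest array with each siRNA. The log2 change with Plin2 siRNA was -0.03 (95% interval -0.20 to 0.14, limma adjusted p = 0.87).

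Myh7b, an ancient slow-type myosin gene that also hosts a microRNA, was the member that rose. It was at 7.61 with palmitate, 7.75 with oleate and 7.51 with BSA in Plin2 siRNA cells, against 6.85 with palmitate, 7.18 with oleate and 7.27 with BSA in scrambled cells. All 3 Plin2 siRNA arrays were above the 3 scrambled arrays. The log2 change was 0.52 (SE 0.10, n = 3 pairs, limma adjusted p = 0.0048), or 1.44 times the scrambled level. The hosted microRNA, whose gene has its own probe set, is shown with its seed, bases 2 to 8, in capitals.
mmu-miR-499-5p (GRCm38.p6 chr2:155622893-155622913, plus strand, inside Myh7b): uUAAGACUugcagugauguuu
The probe set tied to Mir499, looked up after the members' values were seen, was at 4.02 with palmitate, 4.04 with oleate and 3.70 with BSA in Plin2 siRNA cells, against 3.62 with palmitate, 4.02 with oleate and 3.62 with BSA in scrambled cells. The scrambled oleate array lay among the Plin2 siRNA arrays, and the log2 change of 0.17 (95% interval -0.09 to 0.44, limma adjusted p = 0.42) did not pass. All 6 values lay below the array medians (4.94 to 5.02), a level too low to compare the change with that of Myh7b. The probe set does not measure the mature microRNA.

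**Figure D1:**
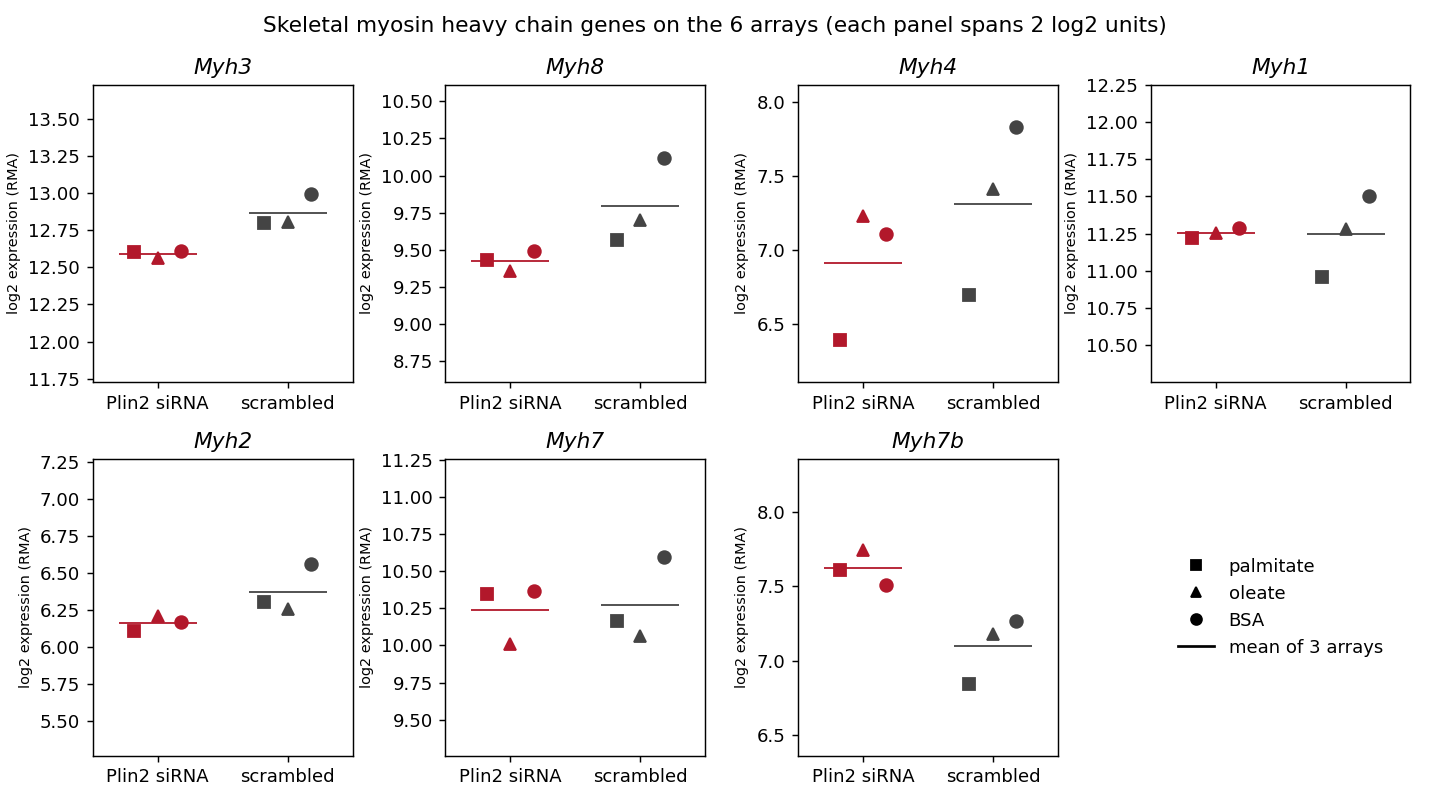
Log2 expression of each myosin gene on every array, with Plin2 siRNA left of scrambled siRNA, marker shapes for the treatments and a line at the mean of 3 arrays. Myh3, Myh8 and Myh2 lie lower and Myh7b higher on all 3 Plin2 siRNA arrays, and scrambled BSA is the highest array of every gene except Myh7b.

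In all, the siRNA groups did not overlap for 4 of the 7 genes (3 lower, 1 higher). This held for 30.3% of all probe sets, 14.7% lower and 15.6% higher. Scrambled BSA was the highest of the 6 arrays for 6 of the 7 genes, all but Myh7b, where this held for 16.6% of all probe sets. Each array was left out of the fit in turn. Without scrambled BSA, Myh3 was at -0.22 (limma adjusted p = 0.15), Myh8 at -0.24 (0.17) and Myh4 at -0.24 (0.32), none of them past the threshold, while Myh7b was at 0.67 (0.0013). Leaving out the Plin2 siRNA BSA array removes the same pair from the siRNA estimate, so it gives the same changes by construction and is no separate check. The falls of Myh3, Myh8 and Myh4 thus keep their direction without the BSA pair and do not pass the test.

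**Figure D2:**
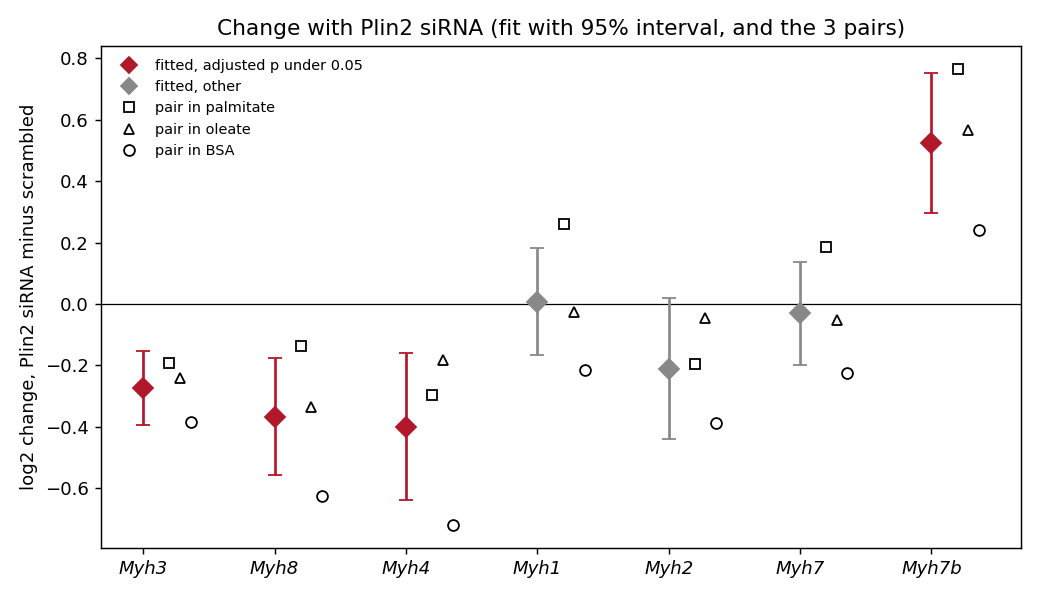
Log2 change of each myosin gene with Plin2 siRNA against scrambled siRNA: diamonds are the limma fit with its 95% interval, open markers the single pairs of arrays. Myh3, Myh8, Myh4 and Myh7b passed the threshold, and the BSA pair is the lowest for every gene.

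The difference between the siRNAs was lowest in BSA for all 7 genes, while the order of palmitate and oleate varied between genes. Myh4 differed by -0.30 in palmitate, -0.18 in oleate and -0.72 in BSA, and Myh8 by -0.14 in palmitate, -0.34 in oleate and -0.63 in BSA. Myh7b differed by 0.77 in palmitate, 0.57 in oleate and 0.24 in BSA. Myh1 and Myh7 had opposite signs, with 0.26 for Myh1 and 0.18 for Myh7 in palmitate, against -0.21 and -0.22 in BSA. For each of the 7 genes the siRNA difference in BSA was below that in palmitate and in oleate, as it was for 31.7% of all probe sets. The median over the 7 genes was -0.14 in palmitate, -0.05 in oleate and -0.39 in BSA, where the median over all probe sets was -0.03 in palmitate, 0.03 in oleate and 0.02 in BSA. An interaction term for siRNA by any fatty acid was above 0 for 7 of 7 genes, and for 51.8% of all probe sets, with a median of 0.33 over the members. None of the 7 passed (limma adjusted p = 0.9998 for each), and 0% of all probe sets did; the term has 1 residual degree of freedom. The unadjusted p was 0.043 for Myh4 (0.48, SE 0.22) and 0.038 for Myh8 (0.39, SE 0.17), and above 0.05 for the other 5 genes; 2.53% of all probe sets were under 0.05. The fit of this term also rests on the BSA arrays, so it is not separate from the scrambled BSA values above.

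Palmitate against BSA moved no member past the threshold, and Myh4 came nearest to it. Of the 7 genes, 0 passed limma's test, where 0.00918% of all probe sets did, and 4 had an unadjusted p under 0.05 (Myh4, Myh1, Myh8 and Myh7), against 5.2% of all. All 7 fitted changes were below 0, as were 52.6% of all. Myh4 stood at -0.92 (SE 0.13, n = 2 pairs, limma adjusted p = 0.16), or 0.527 of the BSA level, made of -0.71 with Plin2 siRNA and -1.13 with scrambled siRNA. Myh1 stood at -0.31 (95% interval -0.52 to -0.09), with -0.07 in Plin2 siRNA cells and -0.54 in scrambled cells. Myh8 stood at -0.30 (95% interval -0.54 to -0.07), with -0.06 in Plin2 siRNA cells and -0.55 in scrambled cells. In the fit of only the 4 palmitate and BSA arrays, Myh4 (limma adjusted p = 1.5e-09) and Myh1 (0.016) passed with the same changes; that fit has 1 residual degree of freedom and borrows the rest of its spread from other probe sets. Myh3 stood at -0.10, Myh2 at -0.16, Myh7 at -0.23 and Myh7b at -0.16.

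Oleate against BSA also moved 0 of the 7 genes past the threshold, where 0.0734% of all probe sets passed, and 2 genes had an unadjusted p under 0.05 (Myh7 and Myh8), against 6.26% of all. The slow gene Myh7 stood at -0.45 (SE 0.09, n = 2 pairs, limma adjusted p = 0.19), made of -0.36 with Plin2 siRNA and -0.53 with scrambled siRNA. It passed with the same change in the fit of only the 4 oleate and BSA arrays (limma adjusted p = 0.021). In that fit 0.294% of all probe sets passed, more than in the main fit. It has 1 residual degree of freedom and borrows the rest of its spread from other probe sets. Myh8 stood at -0.27 (95% interval -0.51 to -0.04). The other 5 genes ranged between -0.15 for Myh4 and 0.08 for Myh7b, and 6 of the 7 fitted changes were below 0, as were 55% of all.

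With scrambled siRNA all 7 genes were below BSA in both fatty acids, a pattern of 32.6% of all probe sets; with Plin2 siRNA 4 of 7 were, against 34.9% of all. The median of the 7 genes with palmitate was -0.06 in Plin2 siRNA cells and -0.43 in scrambled cells. With oleate it was -0.03 in Plin2 siRNA cells and -0.30 in scrambled cells. The changes with both fatty acids share their BSA arrays, so they are not separate evidence of a difference. Within an siRNA they rest on 1 array per condition and have no test.

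**Figure D3:**
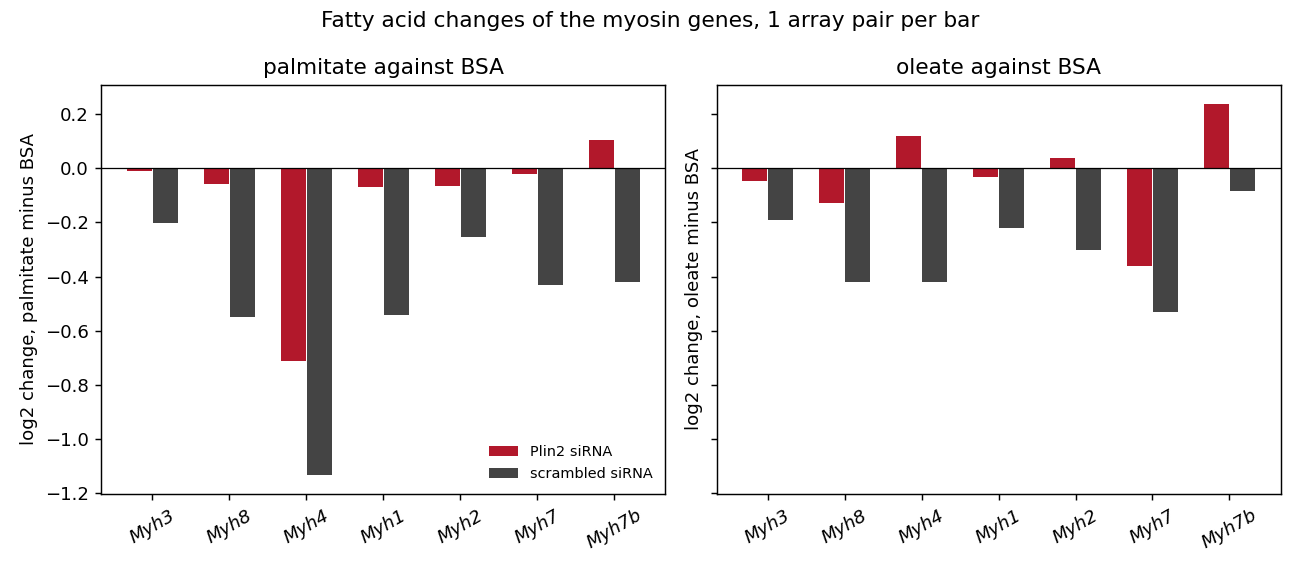
Log2 change of each myosin gene with palmitate (left) and oleate (right) against BSA, with Plin2 siRNA bars left of scrambled siRNA bars, 1 pair of arrays per bar. With scrambled siRNA all bars lie below 0; with Plin2 siRNA only Myh4 with palmitate (-0.71) and Myh7 with oleate (-0.36) lie below -0.3.

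Both fatty acids were compared at the same dose and time. Palmitate is saturated, while oleate has a longer chain with a cis double bond. Myh4 was lower with palmitate, at 6.40 with Plin2 siRNA and 6.70 with scrambled siRNA, against 7.23 and 7.41 with oleate. The palmitate and oleate arrays did not overlap, and the log2 change, palmitate minus oleate, was -0.77 (SE 0.13, n = 2 pairs, limma adjusted p = 0.048), or 0.585 of the oleate level. It was the member that passed, where 0.262% of all probe sets did, 0.119% lower. The call sat at the threshold: it was lost without the scrambled palmitate array (-0.70, limma adjusted p = 0.26) and under 4 other settings. For the other members a difference was not shown: the value was 0.22 for Myh7 (95% interval 0.01 to 0.43, limma adjusted p = 0.52) and -0.24 for Myh7b (95% interval -0.52 to 0.04), and the remaining 4 genes lay between -0.18 and 0.02. This was 1 pair of compounds.

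The genes varied together unevenly. Across the 6 arrays the Pearson correlation of Myh3 with Myh8 was 0.95 and that of Myh2 with Myh8 was 0.92, while Myh7b ran against Myh3 (-0.68); the median of the 21 pairs was 0.49. All pairs share the same 6 arrays, which differ by siRNA and treatment. Among 1481 genes with an SD of at least 0.3 over the arrays, those most like Myh3 were Rnd1 (0.99), Tmem132a (0.99) and Il17b (0.99), and those most like Myh8 were Shisal1 (0.95), Tubb6 (0.95) and Chac1 (0.95). Myh4 was most like Cacna2d2, a calcium channel subunit (0.97), Ampd1, the muscle AMP deaminase (0.93), and Slc44a4 (0.88). Myh2 was most like Thop1 (0.99), Pvalb, the calcium buffer of fast fibres (0.98), and Gm340 (0.97), and Myh1 was most like Nmb (0.98), Grhl3 (0.93) and Tmod4, a thin filament capping protein (0.91). Myh7b was most like Cbr4, 0610040B10Rik and Macrod1 (0.99 each), and Myh7 had the weakest neighbours, Olfr373 (0.92), Idi1 (0.82) and Upk1b (0.81). With 6 arrays and many genes, high values of this measure are common.

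Outside the skeletal set, 2 non-muscle myosins were lower with Plin2 siRNA. Myh10, the non-muscle form IIB, was at 7.21 with palmitate, 7.20 with oleate and 7.30 with BSA in Plin2 siRNA cells, against 8.57 with palmitate, 7.86 with oleate and 8.29 with BSA in scrambled cells, with no overlap. Its log2 change was -1.01 (SE 0.11, limma adjusted p = 0.00012). Myh9, the non-muscle form IIA, fell by 0.59 on the log2 scale at its probe set with the highest mean (SE 0.07, limma adjusted p = 0.00014). That probe set lay at 10.59 to 11.34 over the arrays. A second, dimmer probe set of the gene (5.28 to 6.07) rose by 0.57 (limma adjusted p = 0.0059), so the direction depends on the probe set. Smooth muscle Myh11 (-0.22) and non-muscle Myh14 (-0.31) did not pass. Neither did cardiac Myh6 (-0.09) or the eye muscle forms Myh13 (-0.11) and Myh15 (0.02). Myh15 (2.64 to 3.03) and Myh13 (4.08 to 4.70) lay below the array medians, and Myh11 (4.87 to 5.25) near them, so these values say little about a change.

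Among genes for folding, cross-linking and turnover of thick filament proteins, those that passed were lower. Of 11 measured thick filament genes, 6 fell with Plin2 siRNA and 0 rose (54.5%, against 17.1% of all genes), with a median of -0.33. The ubiquitin ligases Trim54 (-0.70, SE 0.07) and Trim63 (-0.51, SE 0.08), which bind or degrade sarcomere proteins, were among them. So were the M-band proteins Myom3 (-0.49, SE 0.09), Myom2 (-0.47, SE 0.06) and Myom1 (-0.33, SE 0.08), and Obsl1 (-0.48, SE 0.08). The myosin chaperone Unc45b (-0.14, adjusted p = 0.28) and the methyltransferase Smyd1, needed for thick filament assembly (0.19, adjusted p = 0.10), did not pass; both were chosen for mention after their values were seen.

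Regulators of fibre type moved both ways. Of 38 measured genes, 10 rose and 6 fell (42.1%, against 17.1% of all genes), with a median of 0.01. The largest falls were Purb, a single-strand DNA binding repressor of slow and cardiac myosin genes (-1.49, SE 0.07, limma adjusted p = 2.2e-07), the repressor Bhlhe40 (0.498 of the scrambled level) and Tead4, which binds the MCAT element (-0.76, SE 0.08). Its relative Tead1 rose (0.45, SE 0.06), as did the Tead cofactor Vgll2 (0.49, SE 0.12). The largest rises were Ppargc1a, a coactivator of oxidative metabolism (1.52, SE 0.12), Mef2c (1.23, SE 0.17) and Tbx15, a factor of fast glycolytic fibres (0.98, SE 0.09). Next came Eya1, a cofactor in the fast fibre programme (0.59, SE 0.10), and Hdac9, a MEF2 corepressor (0.51, SE 0.11). The rise of Mef2c was widest in palmitate (10.41 with Plin2 siRNA against 8.42 with scrambled siRNA). It was narrower in oleate (10.45 against 9.60) and in BSA (10.52 against 9.70). With these siRNA changes, 5 of 12 myotube markers fell and 1 rose, and 4 of 10 myoblast markers rose and 2 fell. Of the other cell types, 2 of 9 cardiac and 2 of 6 smooth muscle markers fell and 0 rose, 2 of 8 fibroblast markers rose and 1 fell, and 0 of 7 adipocyte and 0 of 3 osteoblast markers passed in limma's test. Smooth muscle markers averaged 7.64 to 7.73 over the Plin2 siRNA arrays, against 7.90 to 8.14 over the scrambled arrays, and their part in the myosin results was not tested. For none of these genes was a link to a myosin gene tested.

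**Figure D4:**
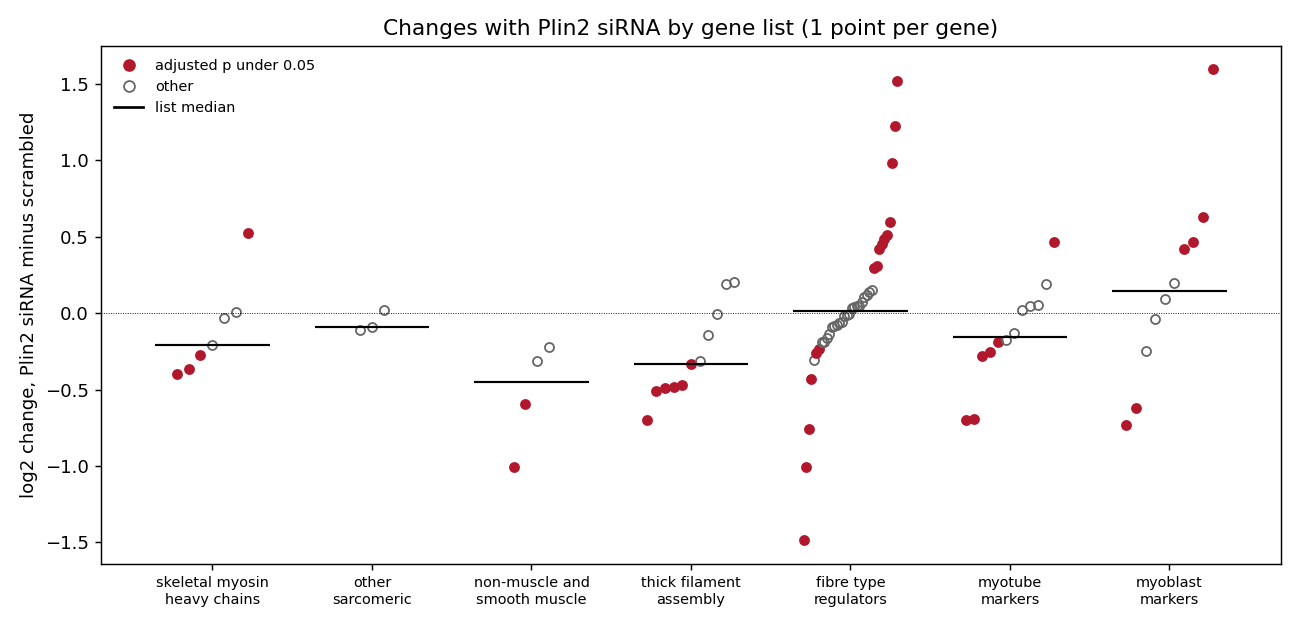
Log2 change with Plin2 siRNA against scrambled siRNA for each measured gene of 7 lists, 1 point per gene, filled where the limma adjusted p was under 0.05, with a line at the list median. The 7 skeletal myosin genes spread from -0.40 (Myh4) to 0.52 (Myh7b), while fibre type regulators reach from -1.49 to 1.52.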

How the data were processed

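RNA from 6 C2C12 myotube cultures, 1 per siRNA and treatment, (100 ng each) was run on Affymetrix arrays after whole-transcript labelling, per the labels' protocols. Each deposited value is a log2 level of a probe set, which the authors made with RMA, per the submitters' processing notes; RMA corrects background, normalizes between arrays and summarises probes. No RMA version or genome build is stated in the labels used. RMA and the span of the values set the log base. No further scaling or filter was applied.

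In GEO's platform annotation, 21789 of the 35556 probe sets had a single gene symbol, 1621 had more than 1, and 12146 are not named here. Where a gene had several probe sets, the one of highest mean stands for it. The fit covered all 21789 probe sets (limma 3.58.1, R 4.3.3) and had terms for siRNA and treatment, with an intensity trend in eBayes, leaving 2 residual degrees of freedom plus 9.21 borrowed ones. P-values were adjusted by Benjamini-Hochberg over all of them. The scripts were tested on simulated data. Sequences came from RefSeq tables (GRCm38.p6), matched by symbol for 7 of 7 members. A motif needed an exact match on either strand of the 250 bases before a start.

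The members, gene lists and tests were chosen with earlier results of these data known. Named beside the members were all other myosin heavy chains listed, up to 10 called genes per list by size of change, and the 3 genes of highest correlation with each member. Alternatives changed the variance model, the probe sets fitted, the normalization, the terms and the arrays; the closing section gives their effect. Some listed genes are not reported here.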

Additional observations from a re-analysis of the deposited data

Results flagged for a closer look

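Myh7b moved in opposite directions with the fatty acids under the 2 siRNAs. With Plin2 siRNA its log2 change against BSA was 0.10 in palmitate and 0.24 in oleate; with scrambled siRNA it was -0.42 in palmitate and -0.085 in oleate. Each value is 1 pair of arrays, both fatty acids share a BSA array, and the difference for a single fatty acid was not tested. The interaction with any fatty acid was 0.42 (SE 0.22, limma adjusted p = 0.9998, unadjusted p = 0.064).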

How the results depend on the processing

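The siRNA contrast called 4 of the 7 genes. It called 1 without the intensity trend (Myh7b) and 1 with every probe set in the fit (Myh3), 2 with no treatment block (Myh3 and Myh7b) and 0 with no moderation of the variance, where 0 of all probe sets passed. It called 4 of 7 after median centring, quantile normalization, robust eBayes, removal of the dimmest probe sets and averaging of probe sets. Leaving out 1 array in turn gave 1 to 4. Treatment is the block of the siRNA contrast, and no other pairing of samples is given in the labels. Over all probe sets the siRNA count was 3721; it was 2403 without the trend, 2159 with every probe set, 2215 without scrambled BSA and 2213 without Plin2 siRNA BSA.

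The oleate count of 0 became 1 (Myh7) with only the 4 arrays compared, where 0.294% of all probe sets passed, and 0 to 1 without 1 array. The palmitate count of 0 became 2 (Myh4 and Myh1) with only the 4 arrays compared and 0 to 2 without 1 array. The count of 1 for palmitate against oleate became 0 without the trend, with every probe set, after quantile normalization and without moderation, and was 0 to 1 without 1 array. Leaving out 1 array could not be fitted for the interaction.

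Signs changed only for changes that had not passed. Median centring turned Myh1 with siRNA to -0.013 and Myh3 with palmitate against oleate to -0.011. Without 1 array, the siRNA change ranged from -0.12 to 0.12 for Myh1 and from -0.14 to 0.065 for Myh7. The oleate change then ranged from -0.29 to 0.038 for Myh1, -0.26 to 0.0011 for Myh2, -0.39 to 0.090 for Myh4 and -0.13 to 0.29 for Myh7b, and the palmitate change of Myh7b from -0.37 to 0.054. Palmitate against oleate ranged from -0.37 to 0.010 for Myh1, -0.15 to 0.10 for Myh2, -0.045 to 0.075 for Myh3 and -0.20 to 0.14 for Myh8. The cause of these changes was not tested.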
